A study of Mus musculus with 4 samples.

Results

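The genes for the proteins of the cytosolic ribosome were followed through mouse embryoid bodies grown with and without a final period of hypoxia. They were chosen by symbol: names beginning with Rps or Rpl and a digit, the stalk genes Rplp0, Rplp1 and Rplp2, and Rpsa, leaving out the Rps6k kinases and pseudogene symbols, with at least 1000 unique molecular identifiers (UMIs, tags that mark counted RNA molecules) over all libraries. The pattern matched 86 symbols, and 83 passed that minimum, of 32285 genes listed and 11516 genes with as many UMIs. Just outside it lay Rpl10l with 8 UMIs, Rpl39l with 49 and Rpl3l with 52, and just inside it lay Rps19bp1 with 13544 UMIs, Rps27rt with 14708 and Rpl7l1 with 18858. Of the 83 members, 77 encode canonical ribosomal proteins, 31 of the small and 46 of the large subunit. Another 4 are paralogs (Rps27l, Rps27rt, Rpl22l1 and Rpl36al). The remaining 2 fit the pattern by name but do not encode ribosomal proteins: Rpl7l1 encodes a factor of ribosome assembly, and Rps19bp1 a protein that binds Rps19.

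Embryoid bodies, spheres in which stem cells differentiate, were made from R1 mouse embryonic stem cells, for which the labels name no genetic change, and their dissociated cells were profiled by 3' droplet sequencing. The 4 groups had 1 library each: 7.33 d of normoxia and then 16 h of hypoxia (Hx8), 8 d of normoxia throughout (Nx8), 8 d of normoxia and then 48 h of hypoxia (Hx10), and 10 d of normoxia throughout (Nx10). The labels do not state the oxygen level used. No difference below has a replicate check, library and condition cannot be told apart, and intervals (95%) cover counting error only.

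Ribosomal proteins line and stabilise the ribosomal RNA of the subunit that reads the messenger RNA and of the subunit that joins amino acids, and most are present once per ribosome. Their messenger RNAs are among the most abundant of growing cells. Many begin with a cytosine followed by a run of pyrimidines, the 5' terminal oligopyrimidine (TOP) tract, through which mTORC1, a kinase complex that answers to nutrients and oxygen, controls their translation and stability. The amount of an RNA does not show how much of it is translated.

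The annotation gives a start for each transcript, and the bases there can be searched for such a tract. RefSeq promoters (build GRCm38.p6) were matched by symbol for 63 members. The windows below run from 10 bases before the annotated start to 20 bases from it onward, 5' to 3', with the unbroken run of pyrimidines that covers the start in capitals. Rpl15 and Rps15a are shown because they were among the members with the highest ratios in hypoxia at day 10, Rps6 because its protein is the classic target of the kinases below mTORC1, and Rps27 and Rps27rt because their coding sequences are the same.
Rpl15 (chr14:18270967-18270996, minus strand): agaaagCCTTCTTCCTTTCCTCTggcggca
Rps15a (chr7:118116128-118116157, minus strand): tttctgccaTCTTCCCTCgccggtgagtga
Rps6 (chr4:86857348-86857377, minus strand): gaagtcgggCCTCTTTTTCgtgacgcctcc
Rps27 (chr3:90213629-90213658, minus strand): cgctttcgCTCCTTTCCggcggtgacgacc
Rps27rt (chr9:114982720-114982749, minus strand): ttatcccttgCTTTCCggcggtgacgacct
The next windows had no pyrimidine, or only 1, at the annotated start. Rps16 had the highest ratio at day 10, Rpl10 the highest at day 8, and Rps27l and Rpl7l1 were among the lowest at day 10.
Rps16 (chr7:28350679-28350708, plus strand): ttctgtcgtgacgtagcactcaatgcgcct
Rpl10 (chrX:74270806-74270835, plus strand): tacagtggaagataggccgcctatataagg
Rps27l (chr9:66946076-66946105, plus strand): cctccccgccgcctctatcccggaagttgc
Rpl7l1 (chr17:46782637-46782666, minus strand): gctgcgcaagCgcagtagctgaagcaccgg

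The annotated start of 13 of the 63 members (20.6%) was a C that began at least 5 pyrimidines in a row, as in Rps27rt, against 2.49% of 27025 promoters of the same length. With the run allowed anywhere from 5 bases before to 10 after the start, the share was 46.0% of the members and 18.5% of all promoters. The letters CCGGAAG, searched on either strand of 300 bases (250 before the start and 50 after), were present in 38.1% of the members and 9.12% of all promoters. TATAA was present in 25.4% of the members and 25.5% of all promoters. GCGTG was present in 55.6% and 32.5%, GGGCGG in 61.9% and 35.9%, and AAGATGG in 14.3% and 6.48%. None of these motifs contains another. The 27025 promoters were not limited to genes measured here. An annotated start can differ from the start used in these cells. A member without a run at its annotated start is therefore not shown to lack a TOP tract.

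The libraries held 3344 cells and 78022581 UMIs in Hx8, 3163 cells and 84709052 UMIs in Nx8, 4615 cells and 76789304 UMIs in Hx10, and 2670 cells and 62221875 UMIs in Nx10. No pair of libraries shared more than 5 cell barcodes. The Hx10 library stood apart: its cells had a median of 12800 UMIs, against 20306 in Nx10, while Hx8 had 18838 and Nx8 23034. Mitochondrially encoded RNA made up 2.01% of UMIs in Hx8 against 3.82% in Nx8, and 1.11% in Hx10 against 4.05% in Nx10. The nuclear RNA Malat1 made up 2.72% in Hx10 against 1.61% in Nx10. The part of mitochondrial and nuclear RNA in the results was not tested, and values by depth are given below. All 8 hypoxia-inducible genes set aside as a check of the labels, among them Egln3 and Pgk1, were at least 1.5-fold higher in hypoxia at both ages. Of the marker lists, the mesenchymal one had the highest summed level in every library, at 10830 to 12938 CPM (UMIs of the gene per 1000000 UMIs of the library), and the lists of pluripotent and of neural markers summed to at most 60.4 CPM.

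Ribosomal protein RNA took a larger share of the measured RNA in both hypoxic libraries, by a little after 16 h and by much more after 48 h. It was 20.8% of UMIs in Hx8 against 19.4% in Nx8, a ratio of 1.07. At day 10 it was 30.7% in Hx10 against 21.7% in Nx10, a ratio of 1.41. The counting intervals of these shares are no wider than the last digit given.

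Over all cells of a library, the mean of ribosomal protein UMIs was nearly level across the libraries while that of other genes was not. A cell held a mean of 4842 ribosomal protein UMIs in Hx8 against 5188 in Nx8, and 5114 in Hx10 against 5068 in Nx10. Of all other genes it held 18490 UMIs in Hx8 against 21593 in Nx8, and 11525 in Hx10 against 18236 in Nx10. The larger share after 48 h went with a total of other UMIs that was 0.632 times as large, and with a ribosomal protein total that was 1.01 times as large. Medians gave 0.542 and 0.909 at day 10, and 0.802 and 0.879 at day 8. In the named classes compared below, the median of ribosomal protein UMIs at day 10 was lower in Hx10. It was 2223 in Hx10 against 4496.5 in Nx10 for endoderm-like cells, and 3967.5 in Hx10 against 4954 in Nx10 for macrophage-like cells. UMIs per cell move with sequencing depth and capture as well as with RNA per cell, and these cannot be told apart here, so every ratio below is of shares of the library total and not of molecules per cell.

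**Figure D1:**
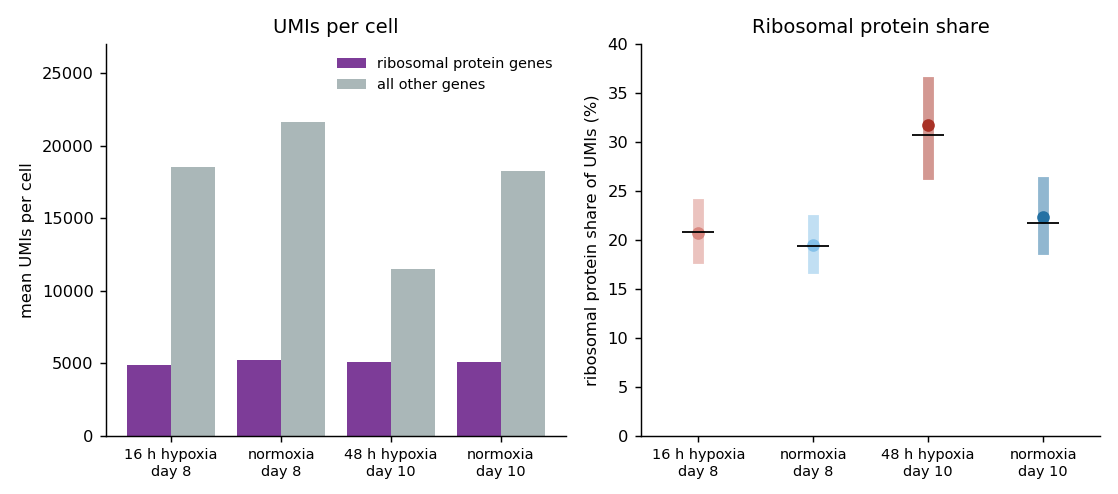
Left, mean UMIs per cell from ribosomal protein genes (purple) and from all other genes (grey) in each library. Right, the ribosomal protein share of UMIs in percent, with the dot at the median over cells, the bar over the quartiles and the line at the share of the whole library; the ribosomal protein bars lie between 4842 and 5188 in all 4 libraries, and the Hx10 share (30.7%) lies above the other 3.

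Members were compared as the log2 ratio of CPM + 1, CPM being taken of each library's total. At day 8 the members lay slightly higher in Hx8, with a median ratio of 0.13 (quartiles -0.01 and 0.25), while the median of the 11516 genes was -0.12. The ratio was above 0 for 60 of 83 members, against 36.6% of all genes. None was at least 1.5-fold higher, against 4.65% of all genes, and 2 were at least 1.5-fold lower, Rps29 and Rps27rt, against 10.8%. The highest were Rpl10 at 0.50, Rpl11 at 0.42, Rpl9 at 0.41, Rps16 at 0.40 and Rpl29 at 0.39. The lowest were Rps27rt at -0.74, Rps29 at -0.64, Rps27l at -0.45, Rpl38 at -0.43 and Rps28 at -0.40. Past a lower threshold, a log2 ratio of 0.32 either way, 7 members were higher and 6 lower, against 11.1% and 29.4% of all genes. Other abundant genes lay as high as the members: the 145 that averaged 500 CPM or more, without mitochondrially encoded ones, had a median of 0.15.

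At day 10 nearly every member lay higher in Hx10, by much the same factor. The median ratio was 0.51 (quartiles 0.34 and 0.61), while that of all genes was -0.48. The ratio was above 0 for 79 members, against 29.0% of all genes, 26 members were at least 1.5-fold higher, against 10.3%, and Rpl7l1 alone was at least 1.5-fold lower, against 44.9%. The highest were Rps16 at 0.85, Rpl29 at 0.83, Rps15a at 0.81, and Rpl15 and Rps3a1 at 0.79. After Rpl7l1 at -1.93, the lowest were Rps19bp1 at -0.43, Rps29 at -0.11 and Rps27l at -0.01. Past 0.32 either way, 65 members were higher and 2 lower, against 17.5% and 57.5% of all genes. The 145 other abundant genes had a median of 0.01.

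Scaling moves the size of these values. With trimmed mean of M values (TMM) scaling, which sets the bulk of genes near 0, the median of all genes shifted to 0.09 at day 8 and -0.01 at day 10, and that of the members to 0.35 and 1.01. The members past 1.5-fold were then 6 higher and 0 lower at day 8, and 78 higher at day 10. Of all genes, 9.34% were then higher and 4.53% lower at day 8, and 24.8% higher and 26.2% lower at day 10. Then 75 members were above 0 at day 8 and 82 at day 10, so that Rps29, Rps27l and Rps19bp1 changed side at day 10 and Rpl7l1 did not. The member median lay above 0 under both scalings in both comparisons. It also lay above the median of all genes under both, but scaling shifts all ratios nearly alike and could hardly change that.

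The hypoxia comparisons share no library, and across the 83 members their ratios went together (Pearson's r 0.48, Spearman's rho 0.57 across genes, which are not independent). Of the members, 60 were above 0 in both, 19 below 0 at day 8 and above 0 at day 10, and 4 below 0 in both: Rps29, Rps27l, Rpl7l1 and Rps19bp1 (none of them with TMM scaling). None was above 0 at day 8 and below 0 at day 10, except Rpl7l1 with TMM scaling. Hx10 had the highest level of the 4 libraries for 78 members, and Nx8 the lowest for 56. The counts of this paragraph were not made over all genes, so they do not show a trait particular to the members.

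**Figure D2:**
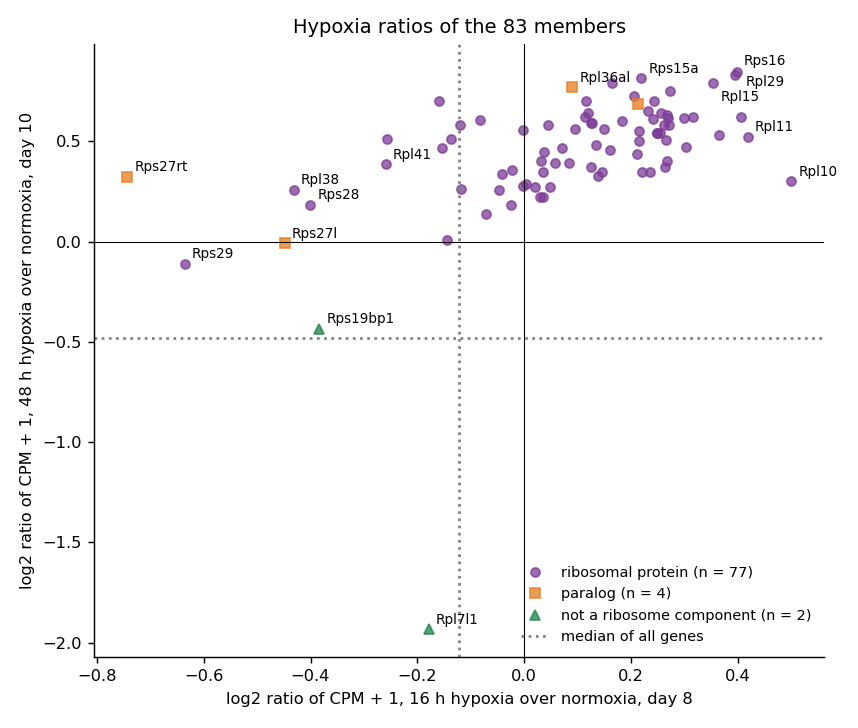
The log2 ratio of CPM + 1 of each of the 83 members after 16 h of hypoxia at day 8 (horizontal) and after 48 h at day 10 (vertical), by kind of gene. Dotted lines mark the medians of all genes (-0.12 and -0.48); most members lie in the upper right, and Rpl7l1 lies alone at the bottom.

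UMIs are counted at the 3' end of an RNA, so levels were not divided by gene length. Among the most abundant members, Rpl41, the smallest ribosomal protein, had 5426 CPM in Hx8 against 6492 in Nx8, and 7399 in Hx10 against 5666 in Nx10. It was lower in hypoxia at day 8 and higher at day 10. Rpl13, Rpl23 and Rpl32, large subunit proteins with ratios of 0.23, 0.26 and 0.22 at day 8, had ratios of 0.65, 0.64 and 0.55 at day 10. In all, 75 members had more than 1000 CPM in every library. The counting interval of a level was at most 5.16% to either side over the 83 members.

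The small and the large subunit had similar medians. The canonical small subunit genes had medians of 0.16 at day 8 and 0.51 at day 10, and the large subunit genes 0.12 and 0.51. Of the large subunit genes 46 of 46, and of the small subunit genes 30 of 31, were above 0 at day 10, the exception being Rps29.

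Single members of known role were spread within this range. Rps16, a small subunit protein whose gene lies at chr7:28350652-28353155 (mm10), had 3489 CPM in Hx8 against 2647 in Nx8, and 6041 in Hx10 against 3359 in Nx10. Its ratio at day 10 was 0.85 (interval 0.84 to 0.85), the highest of the 83. Rps15a, a small subunit protein, had 3181 CPM in Hx8 against 2733 in Nx8, and 5361 in Hx10 against 3048 in Nx10. Rpl15, a large subunit protein, had 3026 CPM in Hx8 against 2368 in Nx8, and 5087 in Hx10 against 2936 in Nx10. All of them were higher in the hypoxic library at both ages, with the wider gap at day 10.

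Rpl10, encoded on the X chromosome, joins the large subunit late in its assembly. It had 1555 CPM in Hx8 against 1099 in Nx8, and 1761 in Hx10 against 1430 in Nx10, ratios of 0.50 and 0.30 (0.73 and 0.80 with TMM scaling). Rpl11 and Rpl5, which together bind Mdm2 when ribosome assembly fails, had unequal ratios. Rpl11 had ratios of 0.42 and 0.52 at day 8 and day 10, and Rpl5 had 0.22 and 0.35. Rps6, the phosphorylated protein of the small subunit, had 1352 CPM in Hx8 against 1324 in Nx8, and 1700 in Hx10 against 1459 in Nx10, ratios of 0.03 and 0.22. The other X-linked canonical members were Rps4x with 0.36 and 0.53, Rpl36a with 0.04 and 0.45, and Rpl39 with -0.15 and 0.47.

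The stalk of the large subunit recruits the translation factors. Rplp0, its base, had ratios of 0.10 at day 8 and 0.56 at day 10. Rplp1 and Rplp2, the acidic proteins that extend from it, had -0.002 and -0.05 at day 8 and 0.28 and 0.26 at day 10, below the medians of the large subunit. Rpl3, next to the site of peptide bond formation, had 0.26 and 0.37, and Rpsa, a small subunit protein also known as the laminin receptor, had 0.16 and 0.45.

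**Figure D3:**
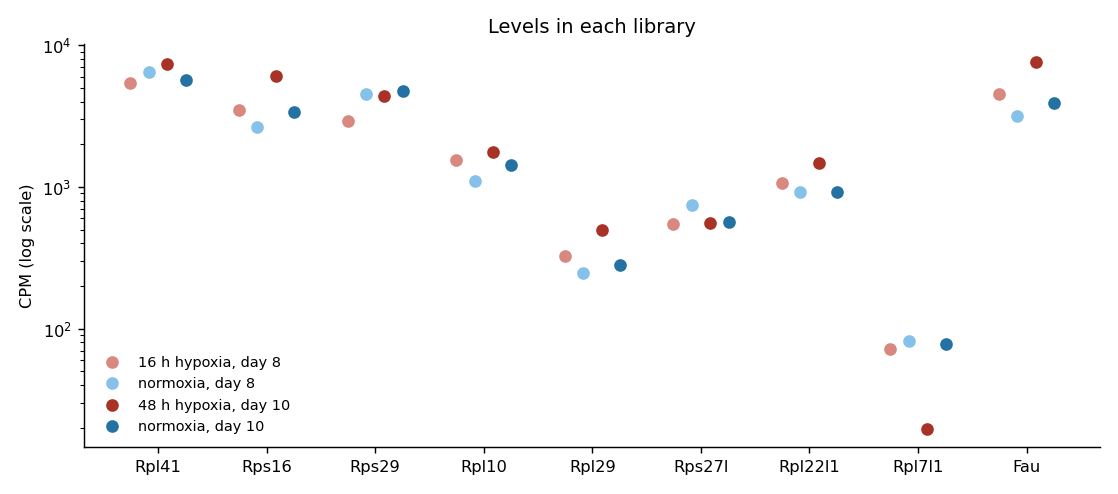
CPM (log scale) of 8 members and of Fau, a ribosomal protein gene with another name, in each library. Rps16 and Rpl29 are highest in Hx10, Rps29 is lowest in Hx8, and Rpl7l1 is lowest in Hx10 (19.7 CPM).

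Of the 19 canonical members below 0 after 16 h, most encode small proteins. Of 16 canonical genes with a coding sequence under 350 bases, 13 were below 0 at day 8 and the median was -0.13. Of the 61 longer ones, 6 were below 0 and the median was 0.21. With TMM scaling the medians were 0.10 and 0.44, with 5 and 0 below 0, so the side of 0 depends on the scaling. TMM scaling shifts all ratios of a comparison by nearly the same amount, so it cannot test the gap between short and longer genes. Coding length and ratio went together across the 77 canonical genes at day 8 (r 0.47, rho 0.55) and hardly at day 10 (r 0.03, rho 0.05), where the medians of short and longer genes were 0.49 and 0.52. The limit of 350 bases was chosen after the values were seen. Length also goes with other features: the number of exons had r 0.38 and rho 0.40 with the day 8 ratio.

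Rps29, a zinc-binding protein of the small subunit with a coding length of 168 bases (chr12:69157722-69159186), had 2912 CPM in Hx8 against 4525 in Nx8, and 4393 in Hx10 against 4742 in Nx10. Its ratio of -0.64 at day 8 (interval -0.64 to -0.63) was the lowest of the canonical members, and so was its ratio of -0.11 at day 10 (0.39 with TMM scaling). Rpl38, a large subunit protein of 210 coding bases needed for the translation of Hox messenger RNAs in mouse embryos, had 2423 CPM in Hx8 against 3269 in Nx8, and 3862 in Hx10 against 3227 in Nx10. Rps28, of 207 coding bases, had 3070 CPM in Hx8 against 4052 in Nx8, and 4891 in Hx10 against 4306 in Nx10. Rpl38 and Rps28 were lower in Hx8 and higher in Hx10 than in normoxia of the same age, and Rps29 was lower in both. Rpl39, of 153 coding bases and set in the wall of the exit tunnel, had -0.15 and 0.47.

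Among genes that are not members, short ones also had a lower median than longer ones at day 8. Of other genes that averaged 500 CPM or more, the 20 with a coding sequence under 350 bases had a median of -0.09 and the 118 longer ones 0.15. Over all other genes measured, the medians were -0.25 for 402 short genes and -0.12 for 10528 longer ones. At day 10 the medians of the abundant genes were 0.13 for the short and -0.07 for the longer ones.

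**Figure D4:**
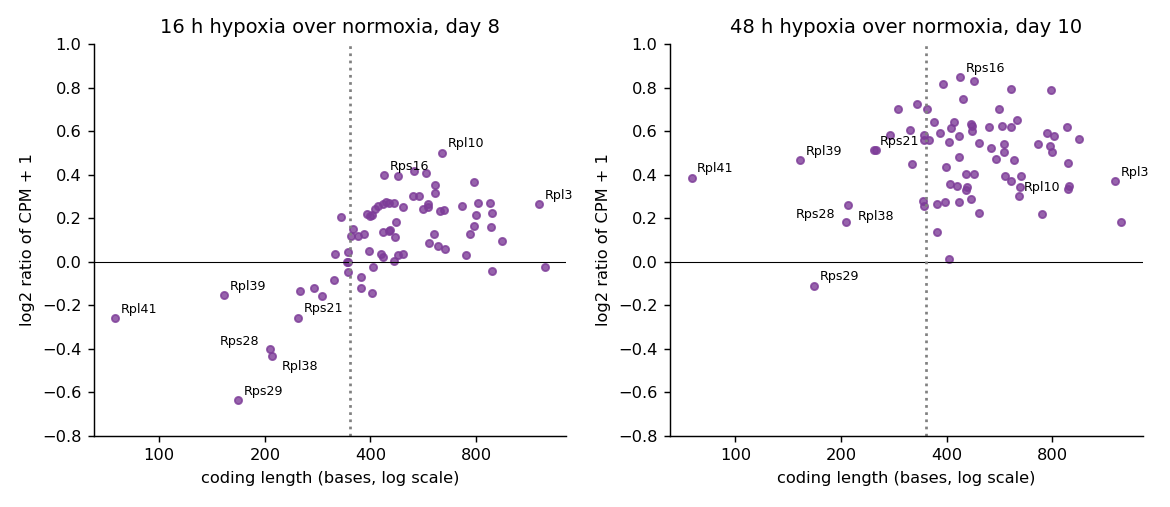
Log2 ratio of CPM + 1 against coding length (log scale) of the 77 canonical members after 16 h of hypoxia at day 8 (left) and after 48 h at day 10 (right), with a dotted line at 350 bases. Left of the line most points lie below 0 at day 8, down to -0.64 for Rps29, and above 0 at day 10.

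The paralogs did not all follow their partners. Rps27l, induced by p53 in mouse and human cells, had 549 CPM in Hx8 against 749 in Nx8, and 559 in Hx10 against 562 in Nx10. Its ratios of -0.45 and -0.01 compare with -0.14 and 0.51 for Rps27, whose coding sequence is 76.2% identical. Rpl22l1 had 0.21 and 0.69 where Rpl22, with which it shares 68.2% of aligned coding bases, had 0.13 and 0.59. Rpl36al had 0.09 and 0.77 where Rpl36a (87.7% identical) had 0.04 and 0.45. Rps27rt had 34.5 CPM in Hx8 against 58.4 in Nx8, and 55.9 in Hx10 against 44.5 in Nx10. All 252 of its coding bases are those of Rps27, so how reads were divided between the genes is uncertain. Ribosomal proteins have many processed copies: the annotation (GENCODE M21) lists 289 pseudogenes with such names, of which 5 are in the deposited tables, with up to 11304 UMIs. No source used here says how reads that match several places were counted.

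The 2 members that are not ribosomal proteins were lower in both hypoxic libraries. With TMM scaling Rpl7l1 was 0.05 at day 8 and -1.45 at day 10, and Rps19bp1 -0.16 and 0.06. Rpl7l1 (chr17:46773907-46782672) had 71.7 CPM in Hx8 against 81.3 in Nx8, and 19.7 in Hx10 against 78.1 in Nx10, a ratio of -1.93 at day 10 (interval -2.07 to -1.90 for the plain ratio). Rps19bp1 had 42.2 CPM in Hx8 against 55.4 in Nx8, and 34.4 in Hx10 against 46.8 in Nx10. Without the paralogs and these genes, the 77 canonical members had medians of 0.13 and 0.51.

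Of the ribosomal proteins that the naming pattern leaves out, Fau lay above the member medians in both hypoxia comparisons, and Rack1 lay below them. Fau, whose product is cleaved to a ubiquitin-like protein and a small subunit protein, had 4551 CPM in Hx8 against 3172 in Nx8, and 7564 in Hx10 against 3897 in Nx10. Rps27a, the member that encodes ubiquitin fused to a small subunit protein, had ratios of 0.27 and 0.63. Rack1, a scaffold on the small subunit, had 0.11 and 0.41.

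As a share of all ribosomal protein UMIs, which does not depend on the library total, most members kept their place. Its log2 ratio to normoxia was within 0.32 of 0 for 74 members at day 8 and 75 at day 10. The largest gains in log2 share were 0.40 for Rpl10, 0.32 for Rpl11 and 0.31 for Rpl9 at day 8, and 0.35 for Rps16, 0.33 for Rpl29 and 0.32 for Rps15a at day 10. The largest losses were -0.86 for Rps27rt, -0.74 for Rps29 and -0.55 for Rps27l at day 8, and -2.48 for Rpl7l1, -0.94 for Rps19bp1 and -0.61 for Rps29 at day 10.

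The 13 members whose annotated start was a C opening at least 5 pyrimidines had ratios that overlapped those of the other 50 matched members. Some of the other 50 also have a pyrimidine run over the start, such as Rpl27a, with a T at the start and a run of 20. The groups are by annotated start, so they do not divide members with a TOP tract from members without one. The 13 had medians of 0.06 at day 8 and 0.51 at day 10, and the other 50 had 0.13 and 0.49.

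Within the cells, the difference at day 10 was present in each class that could be compared. Cells were clustered without ribosomal protein and hypoxia genes and named from markers, and a class was compared where each library had at least 20 cells. No mesenchymal class could be separated from the rest. Cells outside the classes, here and below, are those of the unnamed clusters and of a cluster with epicardial or mesothelial markers. Named classes with too few cells to compare are not among them. In the cells outside the classes the share was 30.7% in Hx10 (4316 cells) against 21.5% in Nx10 (2388 cells). These include 930 cells of Nx10, and none of Hx10, in a cluster with epicardial or mesothelial markers such as Muc16 and Upk3b, whose share was 21.1%. Without that cluster the share was 30.7% in Hx10 against 21.9% in Nx10. Endoderm-like cells had 30.2% in Hx10 against 23.6% in Nx10 (60 and 66 cells), and macrophage-like cells 32.0% in Hx10 against 24.1% in Nx10 (120 and 183 cells). Member medians in these were 0.52, 0.37 and 0.35, beside -0.47, -0.29 and -0.24 for all genes with enough UMIs in the class. At day 10 most cells outside the classes fell in clusters that 1 library made up nearly alone, so cell type and treatment cannot be told apart in these cells.

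At day 8 the classes differed less. Macrophage-like cells had a share of 26.7% in Hx8 against 23.9% in Nx8, and erythroid-like cells 32.5% in Hx8 against 30.9% in Nx8. Megakaryocyte-like cells had 22.1% in Hx8 against 21.1% in Nx8, and the cells outside the classes 19.99% in Hx8 against 18.6% in Nx8. Endoderm-like cells had 22.1% in Hx8 against 22.2% in Nx8, and cardiomyocyte-like cells 22.3% in Hx8 against 22.1% in Nx8. Of the 2884 Hx8 cells outside the classes, 868 were in a cluster with only 26 cells of Nx8, and without it the share was 19.7% in Hx8 against 18.6% in Nx8. Most of the others were in 5 unnamed clusters that both libraries shared. In these the share was 18.4% to 21.1% in Hx8 against 17.9% to 19.8% in Nx8, and it was higher in Hx8 in all 5. The narrowest gap was in cluster 5 (18.4% in Hx8 against 17.9% in Nx8) and the widest in cluster 1 (20.7% in Hx8 against 18.5% in Nx8).

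Erythroid-like cells, marked by embryonic globins, had the highest share of the named classes in both libraries of day 8. Their 154 cells in Hx8 and 107 in Nx8 held medians of 4562.5 and 5383 ribosomal protein UMIs. The share of a member among ribosomal protein UMIs differed between the classes of a library by a median factor of 1.26 in Nx8 and 1.32 in Hx10. Rps27l had the largest factor in Hx10, 3.70, with 190 CPM in megakaryocyte-like and 781 CPM in endoderm-like cells; the megakaryocyte-like value rests on 38 UMIs.

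From 5000 UMIs upward, the deeper the cells, the lower was the median share in each library, and Hx10 cells had fewer UMIs, so the share was also taken within bins of depth. In cells of 20000 to 40000 UMIs it was 29.8% in Hx10 against 21.1% in Nx10, and 20.2% in Hx8 against 19.3% in Nx8. In cells of 10000 to 20000 UMIs it was 32.3% in Hx10 against 24.8% in Nx10, and 22.1% in Hx8 against 21.1% in Nx8. In cells of 40000 UMIs and over it was 28.9% in Hx10 against 19.6% in Nx10, and 20.04% in Hx8 against 18.3% in Nx8. In these bins the share was higher in the hypoxic library at both ages. In cells of 5000 to 10000 UMIs it was 34.4% in Hx10 against 24.2% in Nx10, and 23.6% in Hx8 against 22.5% in Nx8. The median over cells there was lower in Hx8 (22.7%) than in Nx8 (23.4%). Below 5000 UMIs the share was 20.6% in the 166 cells of Hx8 against 24.9% in the 70 cells of Nx8. At day 10 it was 21.5% in the 619 cells of Hx10 against 17.1% in the 162 cells of Nx10. The median over these cells was lower in Hx10 (20.3%) than in Nx10 (21.8%). Below 5000 UMIs the spread between cells was wide in every library. Over the cells of 5000 to 20000 UMIs the member median at day 10 was 0.39, against -0.49 for all genes. In these cells 9 members (10.8%) were at least 1.5-fold higher, against 11.3% of all genes, so the share of members past that threshold was no larger than that of all genes, and 1 member was at least 1.5-fold lower, against 46.1%. With every cell weighing the same, 15.7% of the members and 11.6% of all genes were higher.

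**Figure D5:**
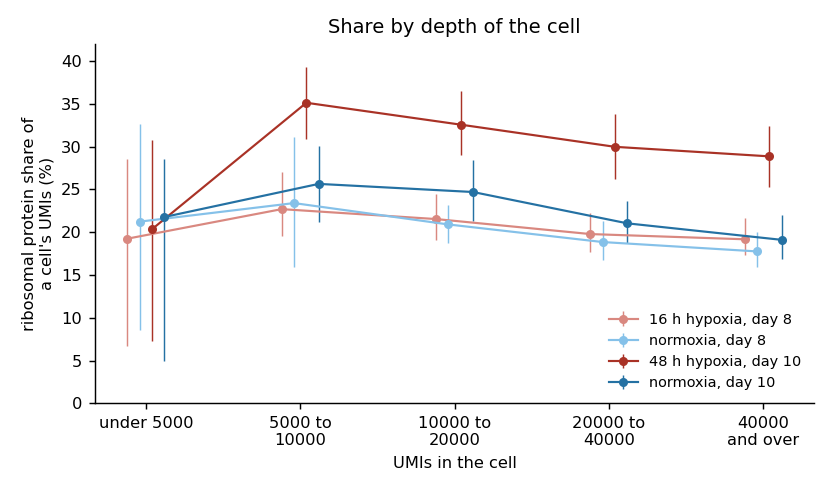
Median ribosomal protein share of a cell's UMIs (percent, bars over the quartiles of cells) by the number of UMIs in the cell, in each library. From 5000 UMIs upward the Hx10 medians (28.9% to 35.1%) lie above those of the other libraries, which lie between 17.8% and 25.6%.

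Day 10 lay above day 8 in normoxia too, by less than 48 h of hypoxia. Between Nx10 and Nx8, each of which also serves in a hypoxia comparison, the share was 21.7% in Nx10 against 19.4% in Nx8 and the member median 0.16, beside -0.08 for all genes. Of the members, 72 were above 0, against 41.1% of all genes, and none was at least 1.5-fold higher or lower, against 8.37% and 8.87%. Past 0.32, 8 were higher and 2 lower, against 16.6% and 24.4%. Among the highest were Rpl10 and Rpl17 with 0.38, Rps27a with 0.35 and Rps16 with 0.34. The lowest were Rps27l with -0.41, Rps27rt with -0.38, Rps19bp1 with -0.24, Rpl41 with -0.20 and Rps2 with -0.10.

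Counts of the lists below are of genes past 1.5-fold, and of all genes 4.65% were higher and 10.8% lower at day 8, and 10.3% higher and 44.9% lower at day 10. Other genes of the translation machinery gave mixed values, and the medians of the initiation, elongation and mTORC1 lists changed sign in at least 1 comparison under TMM scaling. Of 22 other genes known to carry a TOP tract, 2 were at least 1.5-fold higher and none lower at day 8 (median 0.19), and 11 higher and none lower at day 10 (median 0.61). This list overlaps the others. It includes Eef1a1, the elongation factor that brings transfer RNAs, with ratios of 0.19 and 0.65, and Eef2, which moves the ribosome, with 0.30 and 0.72. It also includes the snoRNA host genes Snhg1, with 969 CPM in Hx10 against 169 in Nx10, and Gas5, with 1186 CPM in Hx10 against 359 in Nx10. Of 39 initiation factors, 2 were higher and 2 lower at day 8 (median -0.10), and 6 higher and 4 lower at day 10 (median 0.19). With TMM scaling the medians were 0.12 and 0.68. At day 10 Eif1, which helps choose the start codon, had a ratio of 1.28, and Eif4b, which aids the helicase, 1.22. Of 12 measured elongation and termination genes, none passed 1.5-fold at day 8 (median -0.20), and 2 were higher and 2 lower at day 10 (median 0.18); with TMM scaling the medians were 0.02 and 0.68.

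Genes that build ribosomes lay lower in hypoxia at day 8, and at day 10 they lay with the median of all genes. Of 50 nucleolar genes of ribosome biogenesis, none was higher and 23 were lower at day 8 (median -0.54), and 6 were higher and 23 lower at day 10 (median -0.49, against -0.48 for all genes). With TMM scaling, 1 was higher and 9 lower at day 8 (median -0.33), and 13 higher and 6 lower at day 10 (median -0.03). Ddx21, a helicase of ribosomal RNA synthesis, had 24.95 CPM in Hx8 against 73.6 in Nx8, and 39.6 in Hx10 against 50.2 in Nx10. Dkc1, the pseudouridine synthase of ribosomal RNA, had 25.3 CPM in Hx8 against 48.2 in Nx8, and 11.5 in Hx10 against 39.2 in Nx10. Both were lower in hypoxia at both ages, except that Ddx21 was 0.16 above 0 at day 10 with TMM scaling. Taf1d, a factor of RNA polymerase I, had a ratio of 1.31 at day 10, and Nob1, which acts late in small subunit assembly, had 1.27.

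Of 78 genes of the mitochondrial ribosome, 1 was higher and 2 lower at day 8 (median -0.27), and 4 higher and 43 lower at day 10 (median -0.72), where 44.9% of all genes were lower and their median was -0.48; with TMM scaling the medians were -0.04 and -0.23. Mrpl41 and Mrpl55, of its large subunit, had ratios of -1.64 and -2.23 at day 10. Mrps6 had 314 CPM in Hx10 against 49.7 in Nx10.

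Of 25 genes that act in or on mTORC1 and TOP messenger RNAs, 2 were higher and 1 lower at day 8, and 7 higher and 10 lower at day 10, with medians of -0.10 and -0.29 (0.13 and 0.21 with TMM scaling). Of all genes, 4.65% were higher and 10.8% lower at day 8, and 10.3% were higher and 44.9% lower at day 10. The lower share of the list at day 10 was near that of all genes. Ddit4, an inhibitor of mTORC1 induced by hypoxia, had 93.3 CPM in Hx8 against 16.9 in Nx8, and 53.2 in Hx10 against 23.3 in Nx10. Eif4ebp1, which holds back cap-dependent initiation until mTORC1 phosphorylates it, had ratios of 1.02 and 1.14. Larp1, which binds the TOP tract, had -0.04 and 0.65 (0.18 and 1.15 with TMM scaling). These are RNA levels and not activities.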

How the data were processed

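The values are the deposited UMI counts of each gene in each cell, whole numbers made with Cell Ranger 7.1.0 on mm10, per the submitters' processing notes. No source used here says whether intronic reads were counted. Cells were barcodes with 500 genes or more and no more than 15% mitochondrial UMIs. Scrublet calls were removed, but it called only 1 cell in Hx8, 5 in Nx8, 1 in Hx10 and 9 in Nx10 (at most 0.336%), so doublets remain. UMIs were summed per library, scaled to CPM of the total, and set against each other as log2 ratios with 1 CPM added. Calls are ratios past 1.5-fold. Intervals are exact Poisson (levels), conditional binomial (plain ratios) and Clopper-Pearson (shares). With 1 library per group no test was made; ratios and intervals were tested on simulated data. Cells were clustered with scanpy 1.11.5 on 2000 variable genes (30 components, Leiden at resolution 1); TMM factors came from edgeR 4.0.16 (no edgeR test was run). Gene models are GENCODE M21 (mm10, 1-based), which matched 32158 of the gene IDs; coding lengths leave out the stop codon. The members and lists were chosen with earlier results of these data known. Named members were the 5 highest and 5 lowest ratios of each comparison, the 5 most and 3 least abundant, the 3 largest gains and losses of share, and genes of fixed role; some of these are not reported here. Of other lists, up to 4 genes of largest ratio per comparison and some fixed genes were named.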

Additional observations from a re-analysis of the deposited data

Results flagged for a closer look

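Rps27rt had a ratio of -0.74 after 16 h of hypoxia at day 8 and of 0.32 after 48 h at day 10. It was picked out because no other member was at least 0.32 (log2) lower in one hypoxia comparison and at least 0.32 higher in the other; with TMM scaling Rps29 did so too (-0.41 and 0.39). The difference between the comparisons was not tested. Its coding sequence is that of Rps27, so its UMIs cannot be assigned with certainty, and its level was at most 58.4 CPM.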

How the results depend on the processing

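The member median of each comparison kept its direction under the alternatives run, and 1363 of 1404 values of the 39 named members kept their sign. Changing the UMI minimum or the pseudocount cannot change the sign of a gene's ratio, so part of this count was fixed beforehand. With 1 library per group, no culture could be left out, and the cells of Hx10 were shallower than those of Nx10. No paired analysis was possible because each group has 1 library. TMM scaling gave medians of 0.35, 1.01 and 0.28 for the hypoxia comparisons at day 8 and day 10 and for age, with 6 members higher and 0 lower at day 8 and 78 higher at day 10. Scaling to the total without ribosomal protein and mitochondrially encoded genes gave 0.63 and 47 higher at day 10 (all genes 13.5%), and 0.21 for age. Weighing every cell the same gave 13 higher at day 10 (15.7%, all genes 11.6%). Cells of 5000 to 20000 UMIs gave 0.39 and 9 higher at day 10 (10.8%, all genes 11.3%), and 0.23 for age. At a threshold of 0.32 in log2 ratio, 7 members were higher and 6 lower at day 8, 65 and 2 at day 10, and 8 and 2 with age. At 2-fold, 0 were lower at day 8 and 0 higher at day 10 (all genes 1.95% and 4.44%). The shares of UMIs in Hx8, Nx8, Hx10 and Nx10 were 20.7%, 19.3%, 30.7% and 21.6% over all barcodes, 20.7%, 19.3%, 30.7% and 21.7% for cells of at least 2000 genes, 21.2%, 19.9%, 30.5% and 22.5% as the mean over cells, and 22.2%, 21.1%, 32.7% and 24.8% in cells of 5000 to 20000 UMIs. The next alternatives were chosen after the data were seen. The cells outside the classes gave 19.99% in Hx8, 18.6% in Nx8 and 21.5% in Nx10, with a median of 0.20 for age. Leaving out cluster 8, whose cells are shallow, gave 20.7% in Hx8, 19.4% in Nx8, 30.6% in Hx10 and 21.6% in Nx10. Clusters 3 and 11 were each made up nearly alone by 1 library. Leaving them out of the cells outside the classes gave 19.7% in Hx8, 18.6% in Nx8 and 21.9% in Nx10, with a median of 0.23 for age. A planned fit on mesenchymal-like cells alone was not run because no cluster could be named so.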

Other observations

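Rpl39l and Rpl10l, paralogs best known from testis, fell below the UMI minimum because few cells held them. In Nx8 no Rpl39l UMI came from the 2677 cells outside the classes, which allows a share of cells with a UMI of up to 0.112%. All 39 Rpl39l UMIs of Nx8 came from 2 of the 241 endoderm-like cells, with 22 in one of them. Both of these cells also held Rpl10l, of which 3 endoderm-like cells of Nx8 had 6 UMIs in all. These 2 cells carried 218 and 343 UMIs of the 6 pluripotency markers (5367 and 5953 CPM), 383 of them from Dppa5a, whereas the median of the other 239 endoderm-like cells was 0 and the highest 1505 CPM. In Nx10, 1 cell held both paralogs, with 41 UMIs of the pluripotency markers (2500 CPM), while another endoderm-like cell without both reached 6825 CPM. No cell of Hx8 or Hx10 held both; Hx8 had 2 Rpl39l UMIs in all and Hx10 had 0. The cells were chosen for these paralogs after the values were seen.

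Rpl3l, the paralog of Rpl3 known from skeletal muscle and heart, had UMIs in macrophage-like cells, each with 1 UMI. These were 0 of 38 cells in Hx8, 3 of 51 in Nx8, 2 of 120 in Hx10 and 12 of 183 in Nx10. Of the cardiomyocyte-like cells, 0 of 25 in Hx8, 1 of 33 in Nx8, 0 of 43 in Hx10 and 0 of 9 in Nx10 held a UMI. In the cells outside the classes the numbers were 6 of 2884 in Hx8, 10 of 2677 in Nx8, 7 of 4316 in Hx10 and 7 of 2388 in Nx10. At day 10 the median depths of the cells outside the classes were 13011 UMIs in Hx10 and 20549.5 in Nx10, beside 12290 and 19532 UMIs for the macrophage-like cells.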
